A study of Mus musculus with 12 samples.

Results

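Transcripts of the small heat shock proteins and the co-chaperone Bag3 were compared between undifferentiated and differentiated C2C12 cells, a mouse myoblast line that fuses into multinucleate myotubes. The 8 genes were taken by symbol, Hspb1, Hspb2, Hspb3, Hspb6, Hspb7, Hspb8, Cryab and Bag3, and all 8 were found, among 55385 genes in the count table. Total RNA was sequenced in 3 libraries labelled undifferentiated control and in 3 libraries labelled as differentiated into myotubes, which the protocols place at 7 days. Both groups are the same unmodified cell line, so each library holds RNA of a clonal culture model and not of muscle tissue. No label states that the 3 libraries of a group were grown as separate cultures. The p-values therefore reflect how far these libraries differ, which may be technical. The series also holds small RNA libraries of stem cells, which measured small nucleolar RNAs and are not used here.

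Small heat shock proteins bind unfolding proteins without using ATP and hold them for refolding or disposal by other chaperones. They share an alpha-crystallin domain and assemble into oligomers, often of more than one family member. BAG3 joins HSPB8 to the HSP70 chaperones, and in muscle this complex sends damaged filamin to autophagy. In striated muscle the family is known for binding desmin, actin, titin and filamin at the Z-disc, and mutations in several members cause muscle or nerve disease.

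The libraries held 18335785 to 54083215 counts, and 15932 genes passed the filter on low counts. Levels are in CPM, counts scaled to a common library size by the TMM method, given as mean ± SD over 3 libraries. A gene was called when its adjusted p in edgeR's quasi-likelihood test was under 0.05, which held for 40.1% of tested genes, 20.5% higher and 19.6% lower in myotubes. Myotube replicate 1 stood apart from the other myotube libraries. Its summed level of 8 myotube markers was 8330 CPM against 17470 and 20140, while its summed level of 8 proliferation markers was 920 CPM against 252 and 207. Its summed level of 7 fibroblast markers, of which Thy1 was at 0 in every library, was 5422 CPM against 2208 and 2051. In the myoblast libraries these lists summed to 112 to 242, 2631 to 2659 and 702 to 783 CPM. All 8 myotube markers rose and all 8 proliferation markers fell (edgeR), and the 6 tested fibroblast markers rose. Of these, Actn2 and Ckm among the myotube markers and Dpt and Lum among the fibroblast markers passed the filter through myotubes only and could only have risen.

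Of the 8 genes, 5 were called higher in myotubes (Hspb2, Hspb3, Hspb7, Hspb8 and Cryab), 2 were called lower (Hspb1 and Hspb6), and Bag3 was not called. Against this stands the background of 20.5% higher and 19.6% lower. All 8 passed the filter, but Hspb3 and Hspb7 passed through the myotube libraries only, so both could only have come out higher. The groups did not overlap for 6 of the 8 genes, against 55.9% of all tested genes.

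**Figure D1:**
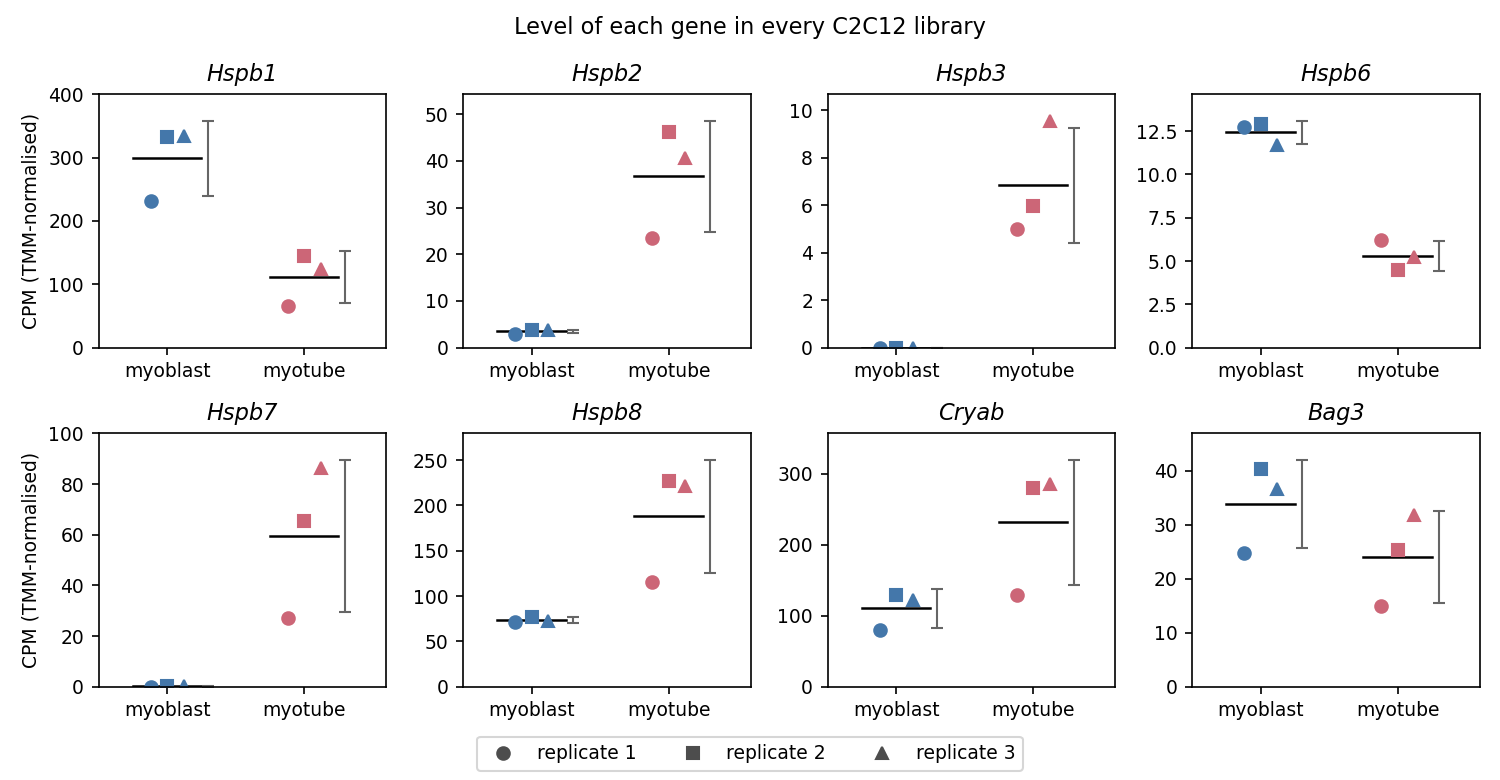
Level of each of the 8 genes in the 6 C2C12 libraries, in TMM-normalised CPM on a linear axis that starts at 0 and differs between panels. Points are libraries (shape gives the replicate), horizontal lines are means and bars are ± SD (n = 3). Hspb2, Hspb3, Hspb7 and Hspb8 lie higher in every myotube library than in any myoblast library, Hspb1 and Hspb6 lie lower, and Cryab and Bag3 overlap.

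Promoters are shown for Hspb1 and Hspb3, the most abundant member in myoblasts and the member without counts there, because their windows hold matches to some of the motifs searched for. Each run is the 250 bases before the RefSeq start (GRCm38.p6, the assembly of the files' mm10), written 5′ to 3′, with motif matches in capitals.
Hspb1, chr5:135887669-135887918, plus strand: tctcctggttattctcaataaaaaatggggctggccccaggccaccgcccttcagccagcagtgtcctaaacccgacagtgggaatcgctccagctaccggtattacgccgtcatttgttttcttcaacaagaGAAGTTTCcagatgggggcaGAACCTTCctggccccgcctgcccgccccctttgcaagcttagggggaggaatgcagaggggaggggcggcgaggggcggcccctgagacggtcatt
Hspb3, chr13:113663677-113663926, minus strand: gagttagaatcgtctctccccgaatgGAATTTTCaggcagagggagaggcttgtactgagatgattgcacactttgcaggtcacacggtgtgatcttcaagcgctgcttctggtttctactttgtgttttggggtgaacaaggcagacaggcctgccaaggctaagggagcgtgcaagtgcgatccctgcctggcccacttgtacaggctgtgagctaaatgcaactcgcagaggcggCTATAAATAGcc

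The Hspb1 window holds 2 matches to GAANNTTC, a form of the heat shock element that heat shock factors bind, at 117 to 110 and 97 to 90 bases before the start. The Hspb3 window holds 1 such match, at 224 to 217 bases, and a match to the MEF2 consensus at 12 to 3 bases, which also contains the TATA box letters TATAAA. Of 32851 RefSeq windows of this length, 6.69% hold GAANNTTC, 7.17% the alternative form TTCNNGAA, 2.92% the MEF2 consensus and 12.4% TATAAA on either strand. The second of the Hspb6 starts also has a GAANNTTC match (120 to 113 bases before it) and a TATAAA match (29 to 24). The first Hspb6 start and the windows of Hspb7, Hspb8 and Bag3 hold none of these letters. No member's window holds the E-box CAGCTG (4271 windows), the E-boxes CACCTG or CAGGTG (17.2%) or the CArG box consensus (1.47%), all searched on both strands. The promoter table covers 6 of the 8 members, and Hspb2 and Cryab are not in it. A match describes letters in the window and was not tested as a binding site.

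The largest changes were those of Hspb3, Hspb7 and Hspb2, members best known from heart and skeletal muscle. Hspb3 (ENSMUSG00000051456.4, chromosome 13, 113662896 to 113663676) encodes a small subunit that forms mixed oligomers with HSPB2. It had 0 counts in each of the myoblast libraries and 129, 183 and 165 counts in myotube replicates 1, 2 and 3. These are 4.99, 5.97 and 9.56 CPM, or 6.84 ± 2.41 CPM (SD, n = 3). Against a floor of 3 counts over the myoblast group, which is 0.0245 CPM, Hspb3 was at least 263-fold higher in myotubes (edgeR adjusted p = 0.000319). Every myotube library had the gene and no myoblast library did.

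Hspb7 (ENSMUSG00000006221.7, chromosome 4, 141420779 to 141425310), the cardiovascular heat shock protein that binds filamin C and actin, had 3, 5 and 7 counts in the myoblast libraries and 703, 2011 and 1488 in the myotube libraries. As CPM it stood at 0.0501, 0.122 and 0.328 in myoblasts and at 27.2, 65.5 and 86.3 in myotubes. The group means were 0.167 ± 0.144 and 59.7 ± 30.0 CPM (SD, n = 3). The log2 fold change was 8.78 ± 0.70 (SE, adjusted p = 0.000166, edgeR). With the summed counts (15 and 4202) divided by the TMM-scaled library sizes, the ratio was 464, with a 95% interval of 281 to 830 that covers counting error only. With so few myoblast counts the fold change moved with single libraries, to 8.17 without myoblast replicate 1 and 9.45 without myoblast replicate 3. All myotube libraries lay far above all myoblast libraries.

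Hspb2 (ENSMUSG00000038086.4, chromosome 9, 50751072 to 50752354), also named myotonic dystrophy kinase binding protein, had 180, 151 and 79 counts in the myoblast libraries. The span of Cryab encloses it, and reads of Cryab could be among these counts, as the strand setting is not given. Hspb2 stood at 3.01, 3.68 and 3.70 CPM in myoblasts and at 23.4, 46.2 and 40.6 CPM in myotubes. Its log2 fold change was 3.41 ± 0.29 (SE, adjusted p = 0.000182, edgeR). The groups were far apart, and the lowest myotube library lay above the highest myoblast library. Per kilobase, Hspb2 exceeded its partner Hspb3 by 4.39, 7.25 and 3.97 times in the 3 myotube libraries.

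Cryab (ENSMUSG00000032060.10, chromosome 9, 50745951 to 50756636) encodes alpha-B-crystallin, a chaperone of desmin and titin. It stood at 79.6, 130 and 121 CPM in myoblasts and at 130, 280 and 285 CPM in myotubes, or 110 ± 26.9 against 232 ± 88.2 CPM (SD, n = 3). Myotube replicate 1 lay within the myoblast range and the other myotube libraries lay above it. The log2 fold change was 1.07 ± 0.33 (SE, adjusted p = 0.0329, edgeR), and without myotube replicate 1 it was 1.34 (adjusted p = 0.00144). Leaving out any single myoblast library ended the call, with an adjusted p of 0.0917, 0.0663 or 0.0771 for replicate 1, 2 or 3. So did leaving out myotube replicate 2 (0.0967) or 3 (0.103). With the replicate number as a block the adjusted p was 0.00511. Over all 12 alternatives it ran from 0.00144 to 0.103.

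Cryab and Hspb2 are neighbours on chromosome 9, and the RefSeq span of Cryab encloses that of Hspb2. The library kit marks strand, but the strand setting of the counting is not given in the sources used here. Reads of the pair could therefore have been assigned to either gene or dropped. The pair did not change alike. Per kilobase Cryab exceeded Hspb2 by 14.9, 19.9 and 18.5 times in the myoblast libraries and by 3.13, 3.41 and 3.96 times in the myotube libraries, without overlap. An exact permutation test of 3 libraries against 3 cannot give a p under 0.1, so no test is given for this or the other ratios.

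Hspb8 (ENSMUSG00000041548.4, chromosome 5, 116408491 to 116422864) encodes HSP22, the small heat shock protein that BAG3 binds. It was even across the myoblast libraries, at 71.3, 77.3 and 72.2 CPM, and stood at 116, 227 and 221 CPM in myotubes. The means were 73.6 ± 3.23 and 188 ± 62.6 CPM (SD, n = 3). Its log2 fold change was 1.35 ± 0.26 (SE, adjusted p = 0.00513, edgeR), and the call held in all 12 alternatives. All myotube libraries lay above all myoblast libraries, with replicate 1 nearest to them.

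Hspb1 (ENSMUSG00000004951.10, chromosome 5, 135887919 to 135889563) encodes mouse HSP25, a regulator of actin filaments that is found in most tissues. It stood at 231, 333 and 334 CPM in myoblasts and at 65.9, 145 and 123 CPM in myotubes, or 299 ± 59.1 against 111 ± 40.9 CPM (SD, n = 3). Its log2 fold change was -1.42 ± 0.31 (SE, adjusted p = 0.00802, edgeR), a level 2.68 times lower. The groups did not overlap. The gene was called lower in all 12 alternatives.

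Hspb6 (ENSMUSG00000036854.14, chromosome 7, 30552535 to 30555443), which encodes HSP20, a protein abundant in mature striated and smooth muscle, went the same way as Hspb1. It stood at 12.7, 12.9 and 11.7 CPM in myoblasts and at 6.22, 4.50 and 5.22 CPM in myotubes. The log2 fold change was -1.23 ± 0.23 (SE, adjusted p = 0.00447, edgeR), and the call held in all 12 alternatives. It was the only member not lowest in myotube replicate 1 among the myotube libraries. Its RefSeq span touches that of Lin37, which stood at 7.24 ± 1.55 and 9.79 ± 1.63 CPM (SD, n = 3; log2 fold change 0.43 ± 0.26, adjusted p = 0.218, edgeR). The spans of Hspb3 and Hspb8 each overlap a predicted non-coding gene, and that of Cryab the end of 2310030G06Rik, at 3.64 ± 0.271 and 4.29 ± 0.923 CPM.

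Bag3 (ENSMUSG00000030847.8, chromosome 7, 128523583 to 128546981) stood at 24.7, 40.3 and 36.6 CPM in myoblasts and at 14.96, 25.3 and 31.8 CPM in myotubes. The groups overlapped, and myotube replicates 2 and 3 lay within the myoblast range. The log2 fold change was -0.50 ± 0.30 (SE, adjusted p = 0.217, edgeR). It was below 0 in all 12 alternatives, between -0.75 and -0.27, with adjusted p from 0.0558 (replicate block) to 0.464.

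**Figure D2:**
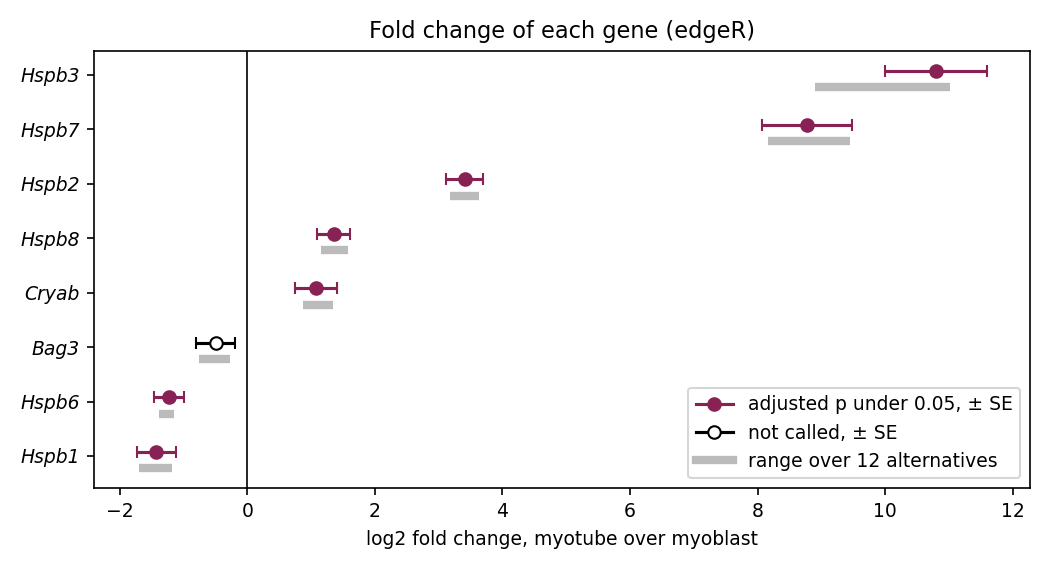
Log2 fold change of each gene, myotube over myoblast, from edgeR (points, ± SE), with grey bars for the range over the 12 alternative analyses. Hspb1, Hspb6 and Bag3 lie below 0 and the other 5 above it in every analysis; the value for Hspb3 depends on how its 0 counts in myoblasts are treated and is not a bound.

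The members were next compared with one another by CPM per kilobase of the deposited gene length, the scale on which levels of different genes can be set side by side. In myoblasts the order was Hspb1 (290 ± 57.3), Cryab (74.6 ± 18.2), Hspb8 (37.7 ± 1.66), Bag3 (13.2 ± 3.18), Hspb6 (5.41 ± 0.290), Hspb2 (4.15 ± 0.473), Hspb7 (0.0602 ± 0.0521) and Hspb3 at 0 (SD, n = 3). No 2 neighbours in this order overlapped between libraries. In myotubes Cryab led (157 ± 59.6), followed by Hspb1 (108 ± 39.6), Hspb8 (96.3 ± 32.1), Hspb2 (44.03 ± 14.2), Hspb7 (21.5 ± 10.8), Bag3 (9.37 ± 3.31), Hspb3 (8.76 ± 3.09) and Hspb6 (2.31 ± 0.377). There the ranges of Cryab, Hspb1 and Hspb8 overlapped from each to the next, although Cryab lay above Hspb1 and Hspb1 above Hspb8 within each of the 3 libraries. The ranges of Hspb2, Hspb7, Bag3 and Hspb3 overlapped likewise, and Bag3 lay above Hspb3 in 2 of 3 libraries. This order depends on the gene length. In CPM not divided by length, Hspb8 (188 ± 62.6) lay above Hspb1 (111 ± 40.9) in myotubes (SD, n = 3).

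The summed level of the 8 genes differed by less than the spread between libraries, at 425 ± 80.0 CPM per kilobase in myoblasts and 447 ± 159 in myotubes (SD, n = 3). Its make-up did change. Hspb1 held 67.2%, 67.8% and 69.3% of the sum in the myoblast libraries and 24.2%, 25.8% and 22.5% in the myotube libraries. Cryab went from 17.4% ± 1.16 to 34.7% ± 1.47 of the sum, Hspb8 from 9.08% ± 1.66 to 21.7% ± 0.675, and Hspb2 from 0.987% ± 0.0840 to 9.98% ± 0.766 (SD, n = 3). For each of these 4 genes the shares did not overlap between groups. Hspb7 reached 4.64% ± 1.09 and Hspb3 2.04% ± 0.556 of the sum in myotubes, while Bag3 and Hspb6 held 2.12% ± 0.270 and 0.604% ± 0.367 there. These shares depend on the gene length: as shares of summed CPM without it, Hspb7 held 8.65%, Hspb2 5.62% and Hspb3 1.07% in myotubes, which puts Hspb7 above Hspb2. On that scale Hspb8 (28.6%) also lay above Hspb1 (16.8%) in myotubes.

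**Figure D3:**
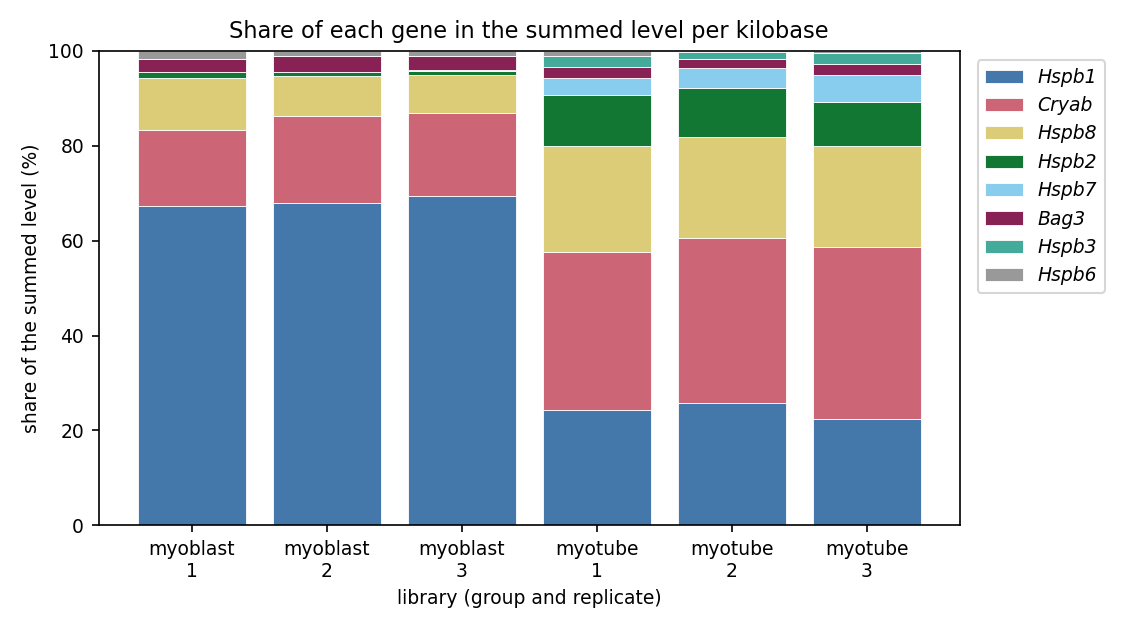
Share of each gene in the summed CPM per kilobase of the 8 genes, in percent, 1 bar per library. Hspb1 takes 67.2% to 69.3% of each myoblast bar and 22.5% to 25.8% of each myotube bar, where Cryab, Hspb8 and Hspb2 take more.

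In myotube replicate 1, 7 of the 8 members were lower than in both other myotube libraries. The mean of replicates 2 and 3 exceeded replicate 1 by 1.56 times for Hspb3, 2.18 times for Cryab and 2.79 times for Hspb7, and the summed level was 264 CPM per kilobase in replicate 1 against 545 and 533. The shares of the abundant members moved less, with Cryab at 33.3%, 34.7% and 36.2% of the sum in replicates 1, 2 and 3 and Hspb8 at 22.5%, 21.4% and 21.3%. Those of the scarcer members varied more, with Hspb7 at 3.72%, 4.35% and 5.85%, Hspb3 at 2.42%, 1.40% and 2.30%, and Hspb6 at 1.03%, 0.359% and 0.426%. The myotube marker sum of this library, given above, was lower like 7 of the 8 members, while its proliferation and fibroblast marker sums were higher. The part of these marker sums in the members' values was not tested. In such bulk libraries fewer cells of a type and less RNA per cell cannot be told apart. Without this library 5 members were again called higher and 2 lower (edgeR), with Hspb1 at -1.17, Hspb8 at 1.58 and Bag3 at -0.27 on the log2 scale.

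Ratios between members that act together were taken within each library. Hspb8 exceeded Bag3 per kilobase by 3.79, 2.52 and 2.59 times in the myoblast libraries and by 10.2, 11.8 and 9.15 times in the myotube libraries. Cryab stood at 0.240, 0.272 and 0.254 times Hspb1 in myoblasts and at 1.37, 1.34 and 1.61 times Hspb1 in myotubes. Both ratios separated the groups completely, myotube replicate 1 included. The ratio of Cryab to Hspb8 did not, at 1.47, 2.22 and 2.22 in myoblasts and 1.48, 1.63 and 1.70 in myotubes.

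**Figure D4:**
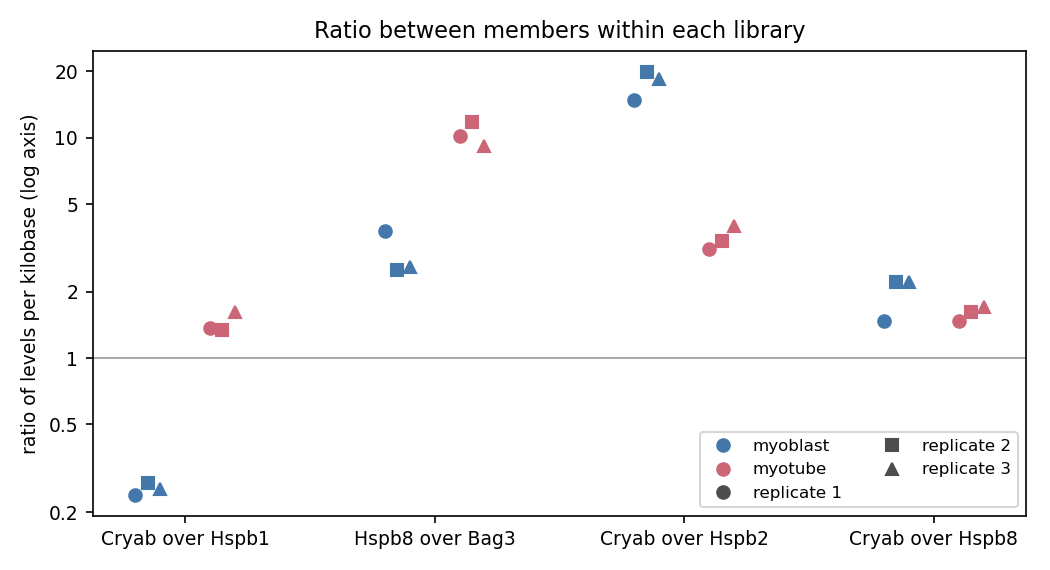
Ratio of 2 members' levels per kilobase within each of the 6 libraries, on a log axis; colour gives the group and shape the replicate, and the line marks equal levels. Cryab passes from below to above Hspb1, Hspb8 over Bag3 lies between 2.52 and 3.79 in myoblasts and between 9.15 and 11.8 in myotubes, Cryab over Hspb2 falls, and Cryab over Hspb8 overlaps.

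The genes with the most similar pattern were sought among the 5790 other genes whose log2 CPM averaged 5 or more. The measure was the root mean square difference of centred log2 CPM over the 6 libraries, given in brackets. For Hspb7 these were Tnnt3 (0.23), Neb (0.23) and Casq2 (0.33), which encode fast troponin T, nebulin and cardiac calsequestrin. For Hspb3 they were Tnnc1 (0.35), Postn (0.47) and Ttn (0.51), and for Hspb2 they were Akap6 (0.10), Fam171a2 (0.16) and Fam20a (0.18). The nearest gene was Tmem123 for Cryab (0.09), Ccnd3, a D-type cyclin, for Hspb8 (0.06), Ppp1r14b for Hspb1 (0.12), Cdr2l for Hspb6 (0.09) and Ddx10 for Bag3 (0.14). A prior count of 2 was added before taking the log2, and it sets the myoblast values of Hspb3, which had 0 counts there. The prior also weighs on the myoblast values of Hspb7, which had 3, 5 and 7 counts. Likeness over these 6 libraries is a description.

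The remaining small heat shock genes were not tested, since Cryaa, the lens alpha-crystallin, Hspb9 and Odf1 had 2, 1 and 4 counts in total over the 6 libraries. The 4 lens markers, Cryaa among them, summed to at most 0.122 CPM in a library, with Crygd at 0 throughout. Of the 5 other BAG genes only Bag4 was called, and it was lower (-0.74 ± 0.17, SE, adjusted p = 0.0094, edgeR; list median -0.48 against 0.06 over all tested genes). Bag1, the most abundant of the 5 BAG genes, stood at 141 ± 18.3 and 217 ± 59.3 CPM (SD, n = 3). It missed the threshold at 0.62 ± 0.24 on the log2 scale (adjusted p = 0.0707, edgeR). It was called higher without myotube replicate 1 (0.81, adjusted p = 0.00609), with the replicate block (0.0333) and among genes of mean count at least 50 (0.0449). Bag6 was not called either (-0.70 ± 0.28, adjusted p = 0.077), except without myoblast replicate 1 (-0.98, adjusted p = 0.00728) or with the block (0.0425), library size scaling (0.0355) or no filter on low counts (0.0268).

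Of 12 genes for partners of BAG3 in chaperone-assisted autophagy, 2 were called higher and 4 lower (edgeR), with a list median of -0.13. That is 50.0% called, against 40.1% of all tested genes. Synpo2, which encodes the adaptor that joins the complex to autophagosome formation at the Z-disc, rose from 30.3 ± 0.937 to 198 ± 88.8 CPM (SD, n = 3; log2 fold change 2.71 ± 0.34, adjusted p = 0.000756). Hspa8, the constitutive HSP70, fell from 1737 ± 171 to 876 ± 201 CPM (-0.99 ± 0.25, adjusted p = 0.0156), a call lost without myoblast replicate 3 (0.0533). Stub1, the ubiquitin ligase CHIP, changed by -0.86 ± 0.16 (adjusted p = 0.00463). The cargo receptor gene Sqstm1 was not called (-0.23 ± 0.23, adjusted p = 0.452). Flna, which encodes filamin A, fell (-1.21 ± 0.29, SE), while Flnc, the muscle form that BAG3 and HSPB7 bind, was at 332 ± 86.2 and 651 ± 307 CPM (SD, n = 3), a change of 0.97 ± 0.39 that missed the threshold (adjusted p = 0.0804). Flnc was called higher without myotube replicate 1 (1.29, adjusted p = 0.00277), with the replicate block (0.0455) and with DESeq2 (0.045).

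Genes for muscle proteins that small heat shock proteins bind were described next. Of 9 such genes, 3 of which are also among the myotube markers, 7 were called higher and Vim lower (-1.61 ± 0.34, adjusted p = 0.00696, edgeR), with a median log2 fold change of 6.18 against 0.06 over all tested genes. That is 88.9% called, against 40.1% of all tested genes. Actn2 and Myot passed the filter through the myotube libraries only and could only have come out higher. Des, which encodes desmin, the intermediate filament protein held by alpha-B-crystallin, rose from 501 ± 125 to 1778 ± 815 CPM (SD, n = 3; 1.83 ± 0.40, adjusted p = 0.00872). Ttn changed by 6.18 ± 0.55, Actn2 by 8.03 ± 0.75 and Actc1 by 7.02 ± 0.75 (SE). Myot had no counts in the myoblast libraries, and its level in myotubes was at least 421-fold higher than the floor of 3 counts over that group. With Myot at its bound the median stays where it is, since the bound also lies above it.

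The general cytosolic chaperones mostly went the other way. Of 9 HSP70 and HSP110 genes, 5 were called lower and 2 higher (median -0.80, edgeR), with Hspa14 at -1.38 ± 0.16, Hsph1 at -1.21 ± 0.32 and Hspa4 at -0.80 ± 0.27 (SE). In this list 77.8% were called, against 40.1% of all tested genes. The call of Hspa4 ended without myoblast replicate 2 (adjusted p = 0.0974), myoblast replicate 3 (0.134) or myotube replicate 3 (0.0749), and that of Hsph1 without myoblast replicate 3 (0.0532). The list had 2 genes called lower without myoblast replicate 3, and 1 gene called higher without myoblast replicate 2 or 3 or without myotube replicate 2 or 3. Hspa1l, one of the 2 called higher (2.40 ± 0.60), passed the filter through the myotube libraries only and could not have come out lower. Counts of the near-identical Hspa1a and Hspa1b are uncertain. Of 11 HSP90 genes and co-chaperones, 9 were called lower and 2 higher (median -0.92). That is 100% called, against 40.1% of all tested genes. With 1 library left out, 7 to 9 of the list were called lower. Hsp90aa1 and Hsp90ab1 changed by -1.54 ± 0.26 and -1.09 ± 0.23, and Fkbp4 by -1.67 ± 0.20 (SE). The 2 that rose are the muscle myosin chaperone genes Unc45b, from 0.236 ± 0.178 to 70.0 ± 30.1 CPM, and Smyd1, from 2.28 ± 0.962 to 82.4 ± 36.9 CPM (SD, n = 3). Unc45b passed the filter through the myotube libraries only, so its direction was fixed by the filter.

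Of 9 tested HSP40 co-chaperone genes, whose products feed clients to HSP70, 3 were called higher and Dnajb1 lower (median 0.20, edgeR). That is 44.4% called, near the 40.1% of all tested genes. Dnajb5 rose by 2.40 ± 0.35, Dnaja4 by 1.5 ± 0.24 and Dnajb2 by 0.89 ± 0.17 on the log2 scale (SE). The abundant Dnaja2 was not called (-0.02 ± 0.18, adjusted p = 0.95). Dnaja1 was not called (-0.64 ± 0.24, adjusted p = 0.064) but was called lower in 5 of 12 alternatives, with adjusted p from 0.0177 (replicate block) to 0.0436 (without myotube replicate 2). The list had 0 genes called lower without myoblast replicate 2 or myotube replicate 3, and 2 without myoblast replicate 1 or myotube replicate 2. Hsf1, the main heat shock transcription factor, fell from 61.0 ± 5.03 to 37.6 ± 9.99 CPM (SD, n = 3; -0.70 ± 0.22, adjusted p = 0.0364), a call that ended without any 1 myoblast library (0.0706, 0.0672 and 0.0974 for replicates 1, 2 and 3) and without myotube replicate 2 (0.0664). Hsbp1, whose product binds HSF1, was called higher (0.51 ± 0.15, adjusted p = 0.0312), a call that ended in 7 of 12 alternatives, among them every left-out library except myotube replicate 1 (adjusted p from 0.0625 to 0.116). Of the list of 3 heat shock factor genes and Hsbp1, no other gene was called (median of the 4 genes 0.33). This list had 50.0% called, against 40.1% of all tested genes.

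**Figure D5:**
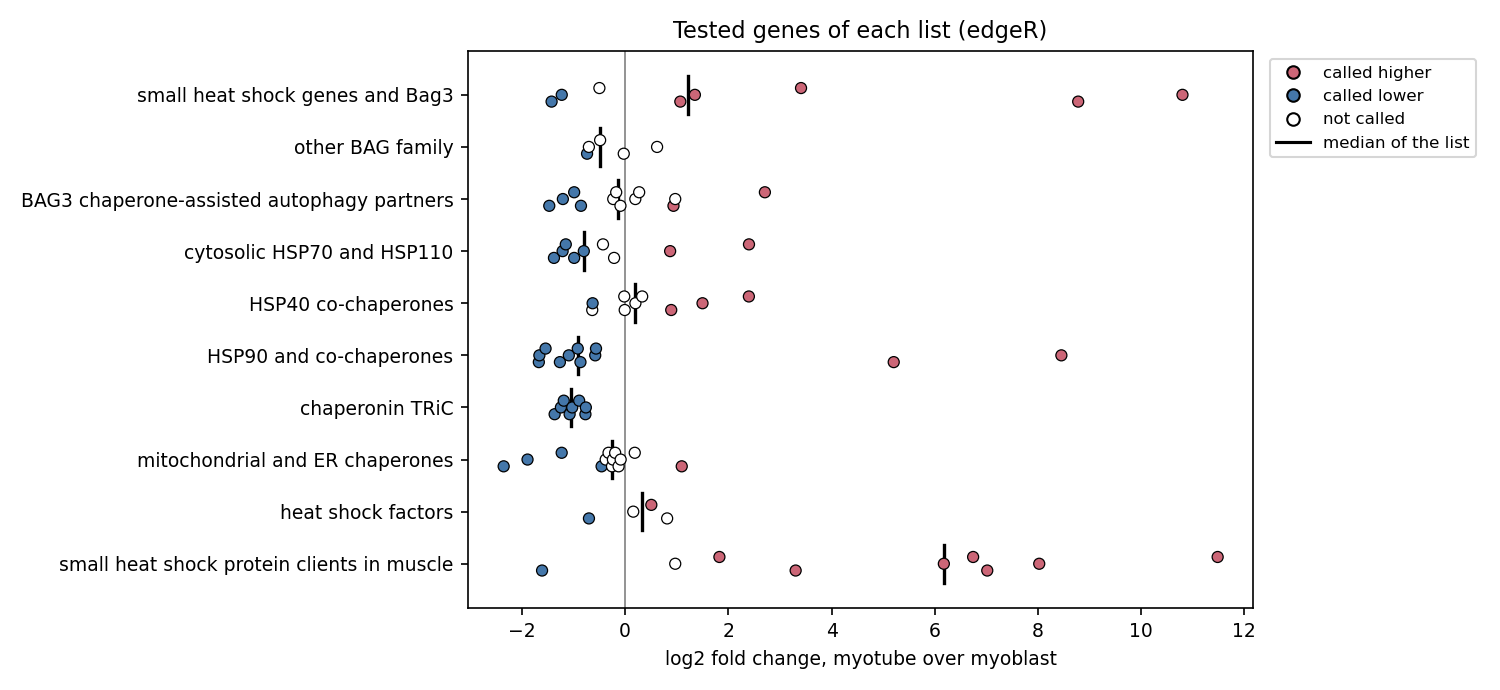
Log2 fold change, myotube over myoblast, of each tested gene in 10 lists, 1 point per gene, coloured by the edgeR call; vertical bars are list medians. The small heat shock genes and Bag3 span both sides of 0, the HSP90 list has 9 genes below 0 with Unc45b and Smyd1 far above, and 8 of the 9 muscle client genes lie above 0. The points of Hspb3 and Myot depend on their 0 counts in myoblasts.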

How the data were processed

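Raw counts per gene were deposited for 6 C2C12 libraries, with gene lengths (another deposited column). The submitters' processing notes name STAR 2.5.1b, featureCounts 1.5.1, DESeq2 1.18.1, Salmon 0.12.0, bcl2fastq and mm10 without giving their roles. All 8 identifiers matched the reference name table. The members and lists were chosen with earlier results of these data known.

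Counts were tested with edgeR 4.0.16 (R 4.3.3): TMM, filterByExpr by group, robust quasi-likelihood F-test, no covariate, Benjamini-Hochberg adjustment over 15932 genes, threshold 0.05. The code of the test was checked on simulated counts with the same dispersion for every gene, which does not bear on how these libraries vary. SE is the absolute log2 fold change over the square root of F. Alternatives were library size scaling, DESeq2 1.42.0, limma-voom 3.58.1, no filter, a mean count of at least 50, a replicate block, and leaving out each library.

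Named genes were the 8 members, up to 3 called genes with the largest change and the 2 most abundant per list, and 7 fixed for their role; up to 3 genes per member were named by likeness. Dnajb1 and single genes of the marker lists were named after their values were seen. A gene that this rule would name is not reported here. The deviations of same-numbered libraries had correlations of 0.232, 0.189 and 0.17, but myoblast 3 and myotube 2 reached 0.358. Deviations were taken from the group means, which ties these correlations together, so they cannot decide on a pairing. The labels' replicate numbers were treated as a possible pairing. No 2 libraries of a group agreed within sampling noise (chi-square per degree of freedom at least 102.8).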

Additional observations from a re-analysis of the deposited data

How the results depend on the processing

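Over the 12 alternatives every member kept its direction, and every call held except that of Cryab, lost in 5 of the 6 analyses with a library left out, and the cause was not tested. Hspb3 and Hspb7 passed the filter through the myotube libraries only, so both could only have come out higher. Leaving out 1 library gave log2 fold changes of 0.87 to 1.34 for Cryab, 1.16 to 1.58 for Hspb8, 3.17 to 3.63 for Hspb2, 8.17 to 9.45 for Hspb7, 10.53 to 11.02 for Hspb3, -1.70 to -1.17 for Hspb1, -1.38 to -1.16 for Hspb6 and -0.75 to -0.27 for Bag3. The values for Hspb3 depend on how its 0 counts in myoblasts are treated (8.90 with limma-voom), and its bound is at least 263-fold. Leaving out 1 library gave 4 to 5 members higher and 2 lower, with 2430 to 3599 genes higher and 2127 to 3517 lower. The replicate block gave 5 members higher and 2 lower, with 3561 and 3322 genes, and changed no member's call. Library size scaling moved the all-gene median (log2) by -0.125 and gave 2678 genes higher and 3678 lower. Of the called genes 42.1% were then higher, against 51.1% in the main analysis. Dividing by gene length matters for the shares: without it, Hspb1 held 56.0% of the summed CPM in myoblasts and 16.8% in myotubes. Of the 42 named list genes, 10 changed their call under some alternative. Depth limits Hspb7 and Hspb3 in myoblasts, with 15 and 0 counts in all.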

Other observations

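The chaperonin TRiC, which folds actin and tubulin, lies outside the partners of the small heat shock proteins. All 8 of its tested subunit genes were called lower in myotubes, against 19.6% of all tested genes (edgeR, median log2 fold change -1.05). This was 6 without myoblast replicate 2 or without myotube replicate 3, and 7 without myoblast replicate 3. Tcp1 and Cct2, the most abundant, changed by -0.89 ± 0.21 and -1.08 ± 0.21, and Cct7, Cct6a and Cct3 by -1.37 ± 0.23, -1.24 ± 0.25 and -1.19 ± 0.29 (SE). Of 13 mitochondrial and endoplasmic reticulum chaperone genes, 4 were called lower and 1 higher (median -0.25), which is 38.5% called against 40.1% of all tested genes. In 8 of the 12 alternatives 3 were called lower. The genes called lower were all mitochondrial, with the chaperonin genes Hspd1 and Hspe1 at -2.35 ± 0.24 and -1.89 ± 0.15 and Hspa9 at -1.23 ± 0.25 (SE). The abundant endoplasmic reticulum chaperone genes Calr and Hsp90b1 were not called (0.19 ± 0.29 and -0.19 ± 0.32), and Calr turned to -0.16 without myotube replicate 1 and Hsp90b1 was called lower without that library (-0.65, adjusted p = 0.0276).

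Markers of other cell types were searched as well. Myh6, Nppb, Csf1r and Cnn1, named here, passed the filter through 1 group only, so their direction was fixed by the filter. Of 5 cardiac markers, Myh6 was called higher (8.38 ± 1.38 CPM in myotubes, SD, n = 3) and Nppb lower, with Tbx5 at 0 counts in every library. Of the others, the neuron marker Tubb3 (156 ± 21.5 and 26.0 ± 14.2 CPM) and the adipocyte marker Pparg (22.2 ± 1.76 and 8.40 ± 2.05 CPM) were called lower. The macrophage marker Csf1r was called higher (0.130 ± 0.102 and 0.648 ± 0.413 CPM), but the other macrophage markers did not rise. Cd68 was not called (2.16 ± 0.389 and 1.49 ± 0.471 CPM), and Ptprc and Adgre1 had 5 and 1 counts in total, all in myoblast libraries. The adipocyte genes Adipoq and Cidec and the neuron genes Rbfox3 and Snap25 had 0 counts throughout, and 4 macrophage markers summed to at most 2.71 CPM in any library. The 5 smooth muscle markers, of which Des is also a muscle client gene, summed to 1022 to 3820 CPM in myoblasts and 1459 to 4135 CPM in myotubes, with Des called higher, Cnn1 lower and Myh11 not tested.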
